A study of Homo sapiens with 6 samples.

Results

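The Polycomb core genes examined here are 10 genes of the Polycomb repressive complexes PRC1 and PRC2, named by their membership in the complexes: BMI1, RING1, RNF2, PCGF2, PCGF6 and PHC2 of PRC1, and EZH1, EZH2, EED and SUZ12 of PRC2. They were picked out because the change of BMI1 between the groups compared below was already known, so their changes in that comparison are described and carry no test. They took up 48 of the 109018 rows of the deposited table and are 10 of the 19053 genes to which a row could be matched. All 10 passed the filter on low counts, a mean CPM (the reads of a gene relative to those of its library) of at least 1.

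RNA-seq was performed on K562 cells, a Bcr-Abl-positive human erythroleukemia cell line. In 3 libraries the cells carried a short hairpin RNA (shRNA) that targets the long noncoding RNA named lncRNA-IIRX in the labels and lncRNA-IUR-5 in the study (sh-IUR-5). In 3 further libraries, the controls, the shRNA targeted luciferase (sh-luc). Both groups were derivatives of the same line that stably expressed an shRNA from a lentiviral vector. The study describes the cells of the 3 libraries as independent groups. The labels, however, number libraries 2 and 3 of each group within the same series, apart from library 1. Whether libraries 2 and 3 were grown separately cannot be told from the labels. Reads counted on the table's rows ranged from 21023739 to 31481109 per library, and the knockdown itself was not analysed here because the rows are protein accessions. All 12 erythroid markers examined (among them GATA1, HBG1 and HBZ) passed the filter in these cells, with a summed level of 22086 to 24827 in sh-luc and 15175 to 16214 in sh-IUR-5 libraries, most of it from HBG1 and HBG2, in the scaled RPKM explained below. Of 10 markers of other cell types, MS4A1 and MPO had no reads, CD3E, CD14, ALB, COL1A1 and PECAM1 were under the filter, and EPCAM was expressed. The summed level of those 10 markers was 96.3 to 111 in sh-luc and 83 to 106 in sh-IUR-5 libraries, and without EPCAM it was 3.09 to 3.74 and 2.28 to 2.91. The part of either list in the results below was not tested.

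Polycomb complexes keep genes silent through chromatin. PRC2 methylates histone H3 through its catalytic subunit EZH1 or EZH2, which works only together with EED and SUZ12, while PRC1 ubiquitinates histone H2A through RING1 or RNF2, each paired with a single PCGF protein that determines which form of PRC1 is built. In blood cells BMI1 (also called PCGF4) is known for sustaining stem cell self-renewal and for repressing the INK4 cell cycle inhibitors.

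Levels are given as RPKM (reads relative to the length of a row and to library size), summed over the rows of a gene and divided by the TMM factor of the library, which corrects for differences in RNA composition. This scale is per length, so that it allows genes as well as libraries to be compared. Fold changes are log2 values of sh-IUR-5 over sh-luc from edgeR, on reads summed over a gene's rows. Their standard error (SE) is not an edgeR output. It was computed as the absolute log2 value divided by the square root of the F statistic of the edgeR test. Of 26167 features tested, 38.8% passed an adjusted p of 0.05, 19.4% with the higher and 19.4% with the lower level after knockdown, and in 49.9% the libraries of the groups did not overlap (25.5% higher, 24.4% lower), so that a difference between these groups was common. Among the 10 core genes 5 passed this threshold, 4 higher and 1 lower, and 6 did not overlap between groups (4 higher, 2 lower), counts from which nothing is read because the genes were chosen with this comparison known. In bulk RNA, a smaller number of expressing cells and less RNA per cell cannot be told apart.

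The RNA composition scaling set the sign of the small differences. The median log2 fold change over all features was 0.02 with TMM and 0.25 when reads were scaled to library totals alone, and the number of core genes above 0 was 6 with TMM and 9 with total reads. The median of the 10 genes was 0.23 with TMM and 0.46 with total reads, beside those medians of all features. Fold changes also followed coding GC content: their median was 0.13 in the fifth of genes with the lowest GC and -0.15 in the fifth with the highest. BMI1, at 41% coding GC, lies in the former, and RING1, at 62%, in the latter. Values with each library's trends on GC and length removed are therefore given for some genes. They also differ for genes where none is given below. Among these, SCML2 went from 1.07 to 0.87, BCOR from 0.61 to 0.46 and COMMD3-BMI1 from 0.59 to 0.45, while RYBP went from 0.71 to 0.80.

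BMI1, a PCGF subunit of canonical PRC1, showed the largest fold change of the 10 genes. The BMI1 gene lies at chr10:22321099-22331484 on the plus strand (GENCODE release 44, hg38). Its row held 297, 320 and 270 reads in sh-luc libraries 1, 2 and 3 and 971, 691 and 739 reads in sh-IUR-5 libraries 1, 2 and 3. As levels these were 14.1, 16.7 and 14.1 RPKM in sh-luc and 27.9, 27.4 and 28.5 RPKM in sh-IUR-5. All 3 sh-IUR-5 libraries lay far above all 3 sh-luc libraries, and they differed little from each other. The log2 fold change was 0.90 (SE 0.095), or 1.87-fold, above 97.9% of all features. It ranged from 0.86 to 0.99 when single libraries were left out, and was 1.14 with total reads and 0.85 with the GC and length trends removed.

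Part of the BMI1 sequence is counted in another row. COMMD3-BMI1 is a read-through gene at chr10:22316388-22329542, which joins the upstream neighbour COMMD3, a copper metabolism domain gene at chr10:22316386-22320306, to BMI1. The read-through coding sequence of 1410 bases ends with all 981 bases of the BMI1 coding sequence and begins with 350 bases that COMMD3 shares. The start of the stretch found in both rows is printed below because a read inside it cannot be assigned to either gene, with the start codon in capitals. It lies at chr10:22326450-22326479 on the plus strand (hg38), in a coding exon that both genes have.
BMI1 and COMMD3-BMI1: ATGcatcgaacaacgagaatcaagatcact

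The read-through row was higher in sh-IUR-5 cells, as the BMI1 row was. COMMD3-BMI1 had 22.3, 22.6 and 20.6 RPKM in the sh-luc libraries against 33.9, 31.2 and 33.3 in the sh-IUR-5 libraries, without overlap. Its log2 fold change was 0.59 (SE 0.081), lower than that of the BMI1 row. COMMD3 had 137, 135 and 115 RPKM in sh-luc and 118, 112 and 115 RPKM in sh-IUR-5 libraries. These overlapped, and its log2 fold change of -0.17 (SE 0.083) did not pass the threshold (edgeR adjusted p = 0.121), turning to 0.07 with total reads. With the reads of both rows taken as BMI1, the log2 fold change of BMI1 was 0.70.

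**Figure D1:**
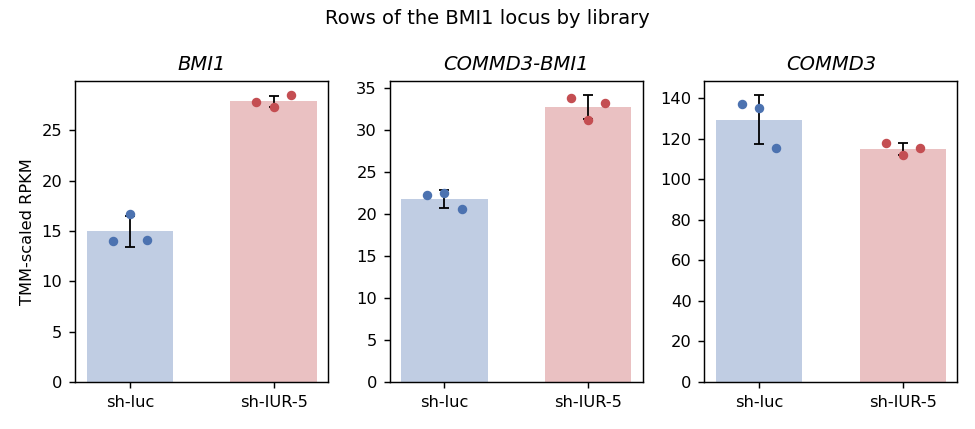
Level of the BMI1, COMMD3-BMI1 and COMMD3 rows in TMM-scaled RPKM, each panel with its own axis from 0. Points are libraries, bars are means and error bars are SD (n = 3). The sh-IUR-5 points of BMI1 (27.4 to 28.5) and COMMD3-BMI1 (31.2 to 33.9) lie above the sh-luc points, while those of COMMD3 overlap.

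The other PCGF genes among the members, which compete with BMI1 for RING1 and RNF2, had smaller differences. PCGF6, the subunit of the variant complex PRC1.6, had 8.09, 10.8 and 9.72 RPKM in sh-luc and 12.5, 12.7 and 13.3 RPKM in sh-IUR-5 libraries. The groups did not overlap, and the log2 fold change was 0.41 (SE 0.11), or 0.30 without sh-luc library 1, the lowest library. PCGF2 (MEL18), the closest paralog of BMI1, had 4.26, 5.6 and 6.19 RPKM in sh-luc and 6.67, 6.16 and 6.17 RPKM in sh-IUR-5 libraries. These overlapped, with a log2 fold change of 0.25 (SE 0.14), 0.42 with the GC and length trends removed and 0.11 without sh-luc library 1. The log2 ratio of PCGF2 was 0.65 between libraries numbered 1 and 0.06 between libraries numbered 2 and 3, which the labels number as another series.

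The catalytic subunits of PRC1 are RING1 and RNF2. RING1 had 65.9, 63.2 and 64.5 RPKM in sh-luc and 53.4, 52.1 and 49.8 RPKM in sh-IUR-5 libraries. Every sh-IUR-5 library was lower, with a log2 fold change of -0.32 (SE 0.074), which was -0.08 with total reads and -0.16 with the GC and length trends removed. RNF2 (RING1B) had 12.3, 14.4 and 15.3 RPKM in sh-luc and 15.1, 16.1 and 19 RPKM in sh-IUR-5 libraries. The lowest sh-IUR-5 library lay below the highest sh-luc library, and the log2 fold change was 0.26 (SE 0.11), or 0.17 without sh-luc library 1 and 0.15 without sh-IUR-5 library 3. This value depended on the isoform rows: among the 4 rows of RNF2 the log2 ratio ran from -0.05 to 0.49, and the row with the most reads alone gave -0.05.

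PHC2, a polyhomeotic subunit through which canonical PRC1 polymerizes, was the least expressed core gene. It had 2.12, 2.05 and 1.6 RPKM in sh-luc and 1.84, 1.76 and 1.91 RPKM in sh-IUR-5 libraries, and the groups overlapped. These levels rest on 46 to 91 reads per library. The log2 fold change was -0.11 (SE 0.16), with 0.13 under total reads, 0.00047 without sh-luc library 1 and -0.21 without sh-luc library 3, so that no direction is given for it.

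In PRC2 the catalytic subunit is EZH2 or EZH1. EZH2, the methyltransferase of dividing cells, had 74.4, 87.4 and 81.5 RPKM in sh-luc and 69.2, 76.7 and 76 RPKM in sh-IUR-5 libraries. The groups overlapped, and the log2 fold change was -0.14 (SE 0.081), with 0.09 under total reads, -0.35 with the GC and length trends removed, -0.08 without sh-luc library 2 and -0.09 without sh-IUR-5 library 1. EZH1, its less active paralog, had 6.98, 5.94 and 6.53 RPKM in sh-luc and 9.38, 8.53 and 8.09 RPKM in sh-IUR-5 libraries. All sh-IUR-5 libraries were higher, with a log2 fold change of 0.42 (SE 0.099), or 0.24 with the GC and length trends removed. Of its 6 rows, 4 did not overlap between groups and were higher, and the row with the most reads gave 0.19.

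The partners of the EZH proteins had small differences that depended on the scaling or on the GC and length trends. SUZ12, which holds the PRC2 core together, had 31.5, 35.8 and 32.1 RPKM in sh-luc and 37.2, 38.4 and 39.2 RPKM in sh-IUR-5 libraries. It did not overlap between groups, but its log2 fold change of 0.20 (SE 0.078) was -0.01 with the GC and length trends removed. EED, which binds the methylated histone tail, had 47.5, 53.1 and 46.8 RPKM in sh-luc and 41.3, 45.6 and 45.6 RPKM in sh-IUR-5 libraries. Its libraries did not overlap either, being lower in sh-IUR-5, and its log2 fold change of -0.16 (SE 0.082) was 0.08 with total reads, -0.30 with the GC and length trends removed and -0.10 without sh-luc library 2.

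**Figure D2:**
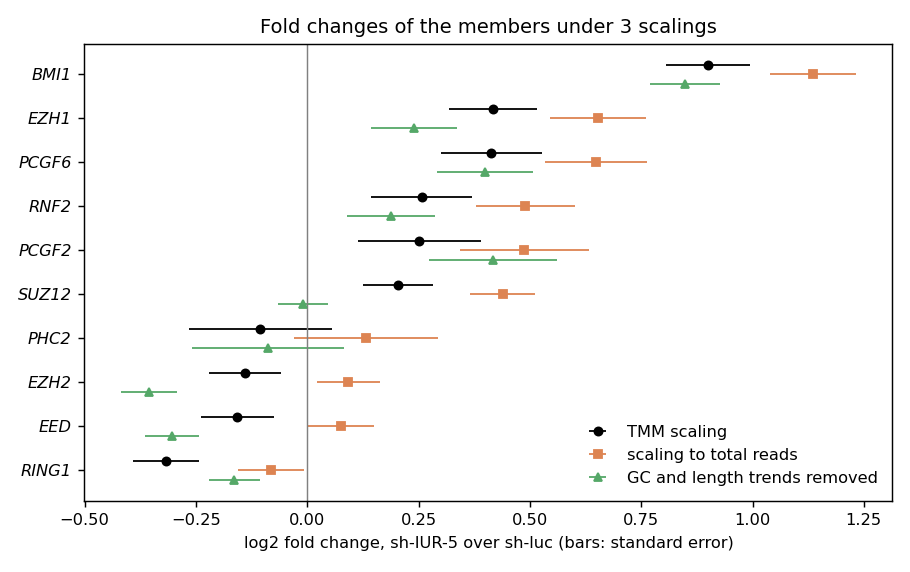
Log2 fold change of each core gene, sh-IUR-5 over sh-luc, with TMM scaling (black), scaling to total reads (orange) and the GC and length trends removed (green). Bars are standard errors. BMI1 lies between 0.85 and 1.14 under all of these, whereas EZH2, EED, PHC2 and SUZ12 lie on both sides of 0.

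Libraries numbered 1 and those numbered 2 and 3 gave the same sign for 9 of the 10 genes. The exception was PHC2, with a log2 ratio of -0.20 between libraries numbered 1 and 0.01 between the others. BMI1 had a log2 ratio of 0.99 and 0.86 in them, and RING1 of -0.30 and -0.32.

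The order of levels was the same in both groups. EZH2 was highest in sh-luc cells, at 81.1 ± 6.48 RPKM (SD, n = 3), followed by RING1 at 64.5 ± 1.35, EED at 49.2 ± 3.43 and SUZ12 at 33.1 ± 2.32. BMI1 at 15.0 ± 1.54 and RNF2 at 14 ± 1.54 came next and their libraries overlapped. PCGF6 followed at 9.53 ± 1.35, then EZH1 at 6.48 ± 0.52 and PCGF2 at 5.35 ± 0.987, which overlapped each other, and PHC2 at 1.92 ± 0.279. In sh-IUR-5 cells no neighbours in the order overlapped, and BMI1 at 27.9 ± 0.562 RPKM stood clear of RNF2 at 16.7 ± 2. The order holds for RPKM summed over rows, and EZH2, whose reads are divided among 23 rows, ranked at 7 of 10 when only the row with the most reads was used. The place of BMI1 rests on its own row and leaves out any BMI1 reads in the COMMD3-BMI1 row.

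**Figure D3:**
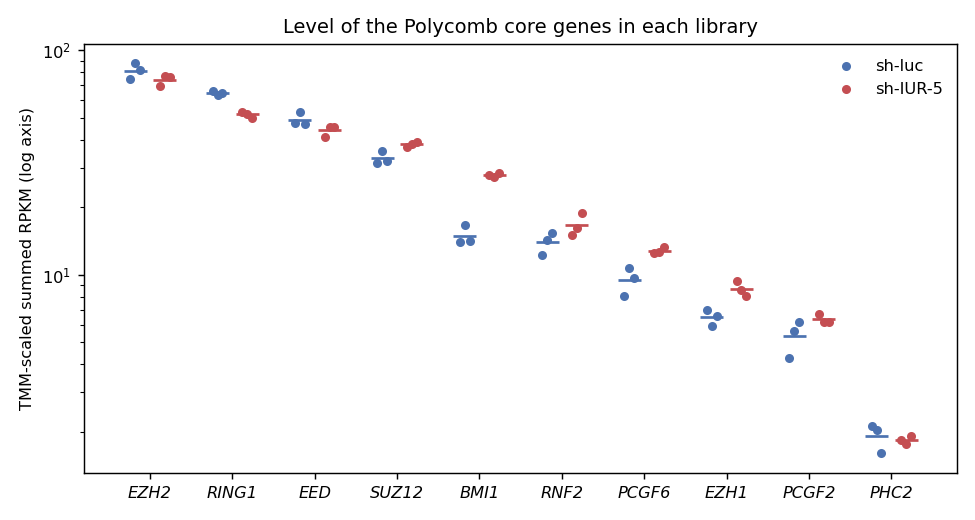
Level of each core gene in TMM-scaled summed RPKM, on a log axis, by library. Points are libraries and lines are group means (n = 3), with sh-luc in blue and sh-IUR-5 in red. Genes run from EZH2 (mean of 81.1 in sh-luc) to PHC2 (1.92), and the red points of BMI1 lie far above the blue ones.

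Paralogs that take the same place in a complex can be compared by their shares of RNA. Of the summed RPKM of the 6 PCGF genes, BMI1 held 15.5%, 17.8% and 15.4% in sh-luc libraries 1, 2 and 3 and 23.6%, 24.5% and 24.7% in their sh-IUR-5 counterparts. PCGF1, the subunit of the BCOR-containing complex PRC1.1, went the other way, from 31.7% ± 1.48 to 20.2% ± 1.24 (SD, n = 3). PCGF5 held 20.9% ± 1.08 and 23.0% ± 0.471, and the shares of PCGF2, PCGF3 and PCGF6 overlapped between groups. By the BMI1 row alone, PCGF1 had the largest share in sh-luc and BMI1 the largest mean share in sh-IUR-5 libraries, where BMI1 exceeded PCGF5 in each of them. These shares leave out the COMMD3-BMI1 row, at a mean of 21.8 RPKM in sh-luc and 32.8 RPKM in sh-IUR-5 libraries. Its reads on the BMI1 sequence cannot be told from those of BMI1, so the lead of PCGF1 in sh-luc is not secure. The family sum was 92.0 ± 1.89 RPKM in sh-luc and 115 ± 3.26 RPKM in sh-IUR-5 cells.

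RING1 held 82.2% ± 1.83 of the RING pair in sh-luc and 75.6% ± 2.84 in sh-IUR-5 cells, with the rest in RNF2 (SD, n = 3). EZH2 held 92.5% ± 1.1 of the EZH pair in sh-luc and 89.5% ± 1.24 in sh-IUR-5 cells. The libraries of the groups did not overlap in either pair. In the polyhomeotic family PHC2 held 50.3% ± 2.97 and 43.9% ± 4.68, with overlap, the remainder being PHC1 and PHC3. Shares do not depend on the scaling of a library, but they do depend on how rows are combined. By the row with the most reads, EZH2 held 73.2% and BMI1 23.6% in sh-luc cells. Shares also keep the GC and length trends, and paralogs differ in coding GC (RING1 62.0%, RNF2 41.7%). With those trends removed the log2 fold change of RING1 was -0.16 in place of -0.32 and that of RNF2 0.19 in place of 0.26. That of EZH2 was -0.35 in place of -0.14 and that of EZH1 0.24 in place of 0.42.

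**Figure D4:**
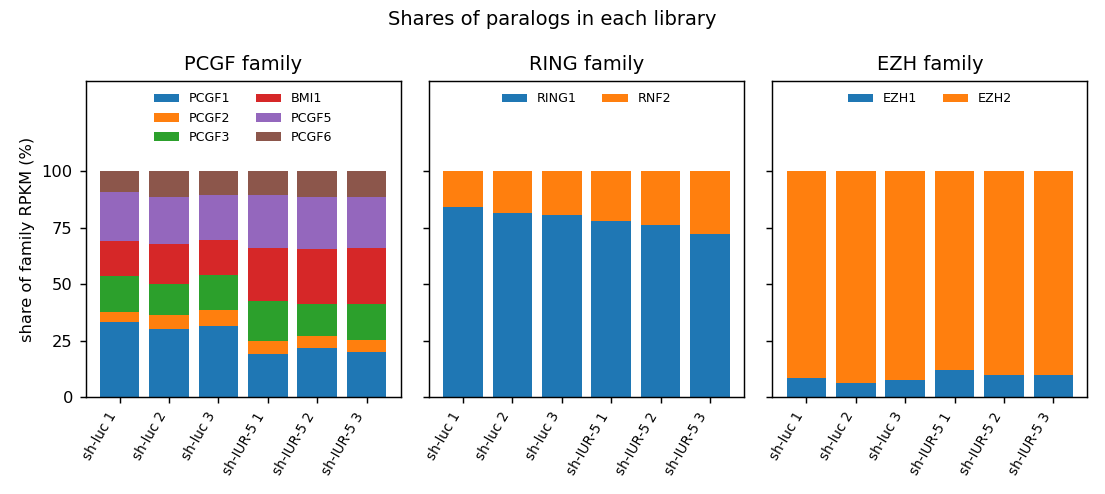
Share of the family's summed RPKM held by each PCGF, RING and EZH gene (%), stacked by library, for sh-luc libraries 1 to 3 and sh-IUR-5 libraries 1 to 3. The BMI1 segment covers 15.4% to 17.8% in sh-luc and 23.6% to 24.7% in sh-IUR-5 libraries, while the PCGF1 segment narrows.

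The promoters of 8 of the 10 core genes had a GC content above the median promoter, and those of EED and PCGF2 lay below it. RefSeq promoter windows (GRCh38.p14, 250 bases before to 50 after a start) were found for all 10 genes, in 13 windows because BMI1, EZH2 and PHC2 have more than 1 start. Their GC content was 52.3% (EED) to 91% (a window of BMI1), against a median of 58.7% over 35116 promoters, and PCGF2 had only 2 CpG dinucleotides against a median of 14. Motifs were searched by their letters on both strands. The E-box CACGTG, a MYC-type site, was in windows of BMI1 and PHC2 and in 7.26% of all promoters. The STAT5-type site TTCNNNGAA, of interest because STAT5 is the factor the study examined, was in the EED window only and in 7.66% of all promoters. The E2F-type sites TTTCCCGC (SUZ12) and TTTGGCGC (EZH2) were in 1.63% and 0.652% of promoters, and CCAAT was in windows of EED, EZH2, PHC2 and SUZ12 and in 34.6%. No motif printed here overlaps another, and the lines show each motif in capitals with flanking bases, the coordinates being those of the whole printed stretch: the E-box of BMI1 at chr10:22321019-22321044 (plus strand), the STAT5-type matches of EED at chr11:86244590-86244618 and chr11:86244617-86244645 (plus strand) and the E2F-type match of SUZ12 at chr17:31936808-31936835 (plus strand). All lie before the RefSeq start of their gene. A match describes the letters and not a bound site.
BMI1: atgaggggagCACGTGacccgctggg
EED, upstream match: catttctatcTTCAAGGAAgaattaggtt
EED, downstream match: ttatgaatagTTCCGTGAAtagtcaggaa
SUZ12: gacccctaatTTTCCCGCgaattcagtt

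The wider pathway was examined with a list of 50 further genes, chosen by their role: 25 other PRC1 genes, 10 other PRC2 genes and 15 genes of enzymes that oppose Polycomb marks and of their partners. Of the 43 that passed the filter, 22 rose and 3 fell in sh-IUR-5 cells (edgeR adjusted p under 0.05), beside 19.4% of all features in each direction and 48.0% of matched genes in either. Their median log2 fold change was 0.29, and that of all features 0.02. With total reads 31 rose and 1 fell, beside 38.8% and 8.14% of all features under that scaling. With the GC and length trends removed 18 rose and 4 fell, beside 22.1% and 23.0% of the genes in that fit.

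Among the other PRC1 genes 13 rose, 2 fell and 8 of the 23 tested did not pass the threshold. Beside these counts, 19.4% of all features were called in each direction and 48.0% of matched genes in either. SCML2, a partner of PRC1 that binds RNA, rose from 3.2 ± 0.478 to 6.75 ± 0.487 RPKM (SD, n = 3; log2 fold change 1.07, SE 0.12, edgeR adjusted p = 9.51e-06). RYBP and YAF2, alternative subunits that stimulate variant PRC1, went in opposite directions. RYBP rose from 3.81 ± 0.265 to 6.24 ± 0.142 RPKM (log2 fold change 0.71, SE 0.14, edgeR adjusted p = 0.00107). YAF2 fell from 42.0 ± 2.93 to 30.1 ± 0.343 RPKM (log2 fold change -0.48, SE 0.09, edgeR adjusted p = 0.000671), and its change was -0.25 with total reads. In PRC1.1, the corepressor gene BCOR rose from 7.24 ± 0.261 to 11.1 ± 0.16 RPKM (log2 fold change 0.61, edgeR adjusted p = 2.25e-05) while its partner PCGF1 fell from 29.2 ± 0.803 to 23.3 ± 0.769 RPKM (log2 fold change -0.33, edgeR adjusted p = 0.00734). The fall of PCGF1 was not past the threshold with total reads (log2 fold change -0.09, edgeR adjusted p = 0.396).

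PCGF5, a subunit of PRC1 complexes with AUTS2, rose from 19.2 ± 0.87 to 26.4 ± 1.06 RPKM (log2 fold change 0.46, edgeR adjusted p = 0.00107), and DCAF7, a scaffold of these complexes, from 38.2 ± 1.09 to 46.8 ± 0.556 RPKM (log2 fold change 0.29, edgeR adjusted p = 0.00674). AUTS2 itself had 8 reads in all and was under the filter. SCMH1, a sex comb protein of canonical PRC1, rose by a log2 fold change of 0.43 (edgeR adjusted p = 0.0183), and USP7, a deubiquitinase found with PRC1, by 0.28 (edgeR adjusted p = 0.0195). Both calls were lost without some of the libraries. Without sh-luc library 2 or 3 or sh-IUR-5 library 1, the adjusted p of SCMH1 was 0.0526 to 0.0882, and without sh-luc library 1 or 3 or sh-IUR-5 library 2 or 3, that of USP7 was 0.0501 to 0.104. USP7 was at 0.01 with the GC and length trends removed.

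Among the other PRC2 genes 3 rose and 1 fell of 8 tested. This is near the 48.0% of matched genes called in either direction, and nothing is read from the count. RBBP4, a histone chaperone that PRC2 shares with other complexes, rose from 116 ± 2.23 to 151 ± 9.01 RPKM (log2 fold change 0.39, SE 0.074, edgeR adjusted p = 0.000777). Its paralog RBBP7, at 167 ± 7.6 and 177 ± 12.5 RPKM, did not pass the threshold (edgeR adjusted p = 0.419). JARID2 and AEBP2, the accessory subunits of the PRC2.2 form, both rose. JARID2 went from 7.94 ± 0.578 to 11.2 ± 1.72 RPKM (log2 fold change 0.50, edgeR adjusted p = 0.00187) and AEBP2 from 6.19 ± 0.151 to 8.51 ± 0.516 RPKM (log2 fold change 0.45, edgeR adjusted p = 0.00385). PHF19, MTF2 and PHF1 are the Polycomb-like subunits of the PRC2.1 form. PHF19, the most abundant, fell from 260 ± 18 to 202 ± 13.6 RPKM (log2 fold change on reads -0.23, edgeR adjusted p = 0.0272), MTF2 was at 18.1 ± 1.88 and 18 ± 1.4 RPKM (edgeR adjusted p = 0.999), and PHF1 had a log2 fold change of -0.24 (edgeR adjusted p = 0.0513). With total reads PHF19 was at 0.01, and without sh-luc library 2 or 3 or sh-IUR-5 library 3 its adjusted p was 0.0532 to 0.151.

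Among the opposing enzymes and partners 6 of 12 tested rose and 0 fell. The shares were 19.4% of all features in each direction and 48.0% of matched genes in either. OGT, the GlcNAc transferase found with the BAP1 complex, rose from 23.2 ± 3.17 to 35.4 ± 4.71 RPKM (log2 fold change 0.61, SE 0.11, edgeR adjusted p = 0.000403). KDM6A (UTX), which removes the methyl mark set by PRC2, rose from 2.37 ± 0.198 to 3.56 ± 0.157 RPKM (log2 fold change 0.57, SE 0.1, edgeR adjusted p = 0.000419). With the GC and length trends removed the log2 fold change of OGT was 0.36 and that of KDM6A 0.29. HCFC1 and FOXK2, partners of BAP1, rose with log2 fold changes of 0.55 (edgeR adjusted p = 0.00166) and 0.40 (edgeR adjusted p = 0.00315). ASXL2 (0.52, edgeR adjusted p = 0.0258) and MYSM1, a histone H2A deubiquitinase (0.31, edgeR adjusted p = 0.0237), also rose, but lost their calls with the GC and length trends removed (log2 fold changes 0.30 and 0.11). ASXL2 lost its call also without sh-luc library 1 or 2 or sh-IUR-5 library 1 (adjusted p 0.0626 to 0.148), and MYSM1 without sh-luc library 1 or 3 or sh-IUR-5 library 1 or 2 (adjusted p 0.0512 to 0.106). BAP1 itself, the deubiquitinase that removes the mark set by PRC1, had a log2 fold change of 0.11 (edgeR adjusted p = 0.338), ASXL1 0.19 (edgeR adjusted p = 0.0631) and USP16 -0.06 (edgeR adjusted p = 0.626), the last of which fell with the GC and length trends removed (-0.23, edgeR adjusted p = 0.0109).

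**Figure D5:**
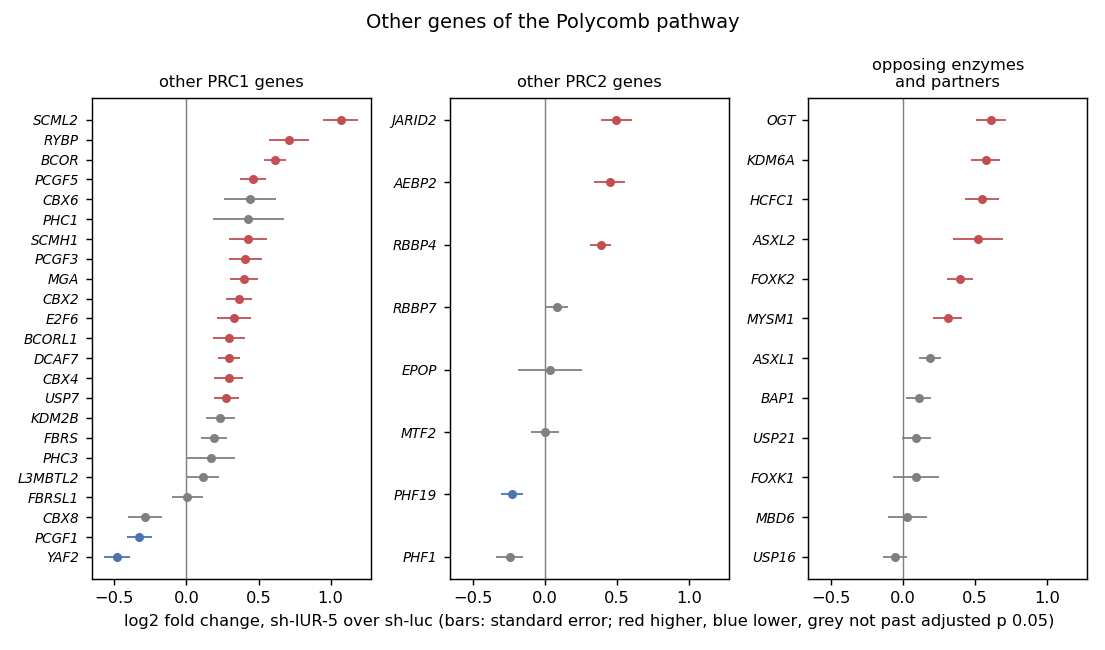
Log2 fold change with standard error of the 43 tested genes of the wider Polycomb list, sh-IUR-5 over sh-luc, in panels for other PRC1 genes, other PRC2 genes and opposing enzymes. Red marks genes that rose, blue genes that fell and grey genes not past an adjusted p of 0.05. The red points (22) run up to SCML2 at 1.07, and the blue points (3) are YAF2, PCGF1 and PHF19.

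Classical targets of Polycomb repression ranged from no reads to the level of the core genes. Of 42 genes, the 39 HOX genes and 3 cyclin-dependent kinase inhibitor genes, 11 had no read in any library, 4 had at most 3 reads in all, and 11 passed the filter. A count of 0 allows up to 3 reads in a library. The genes with no read included CDKN2A and CDKN2B, the INK4 genes at which BMI1 is known to act. K562 cells are known to have lost this locus by deletion, so their counts of 0 say nothing about repression. Of the 11 tested, 2 rose and 2 fell, beside 19.4% of all features in each direction, and their median log2 fold change was 0.10.

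HOXB7 fell from 34.0 ± 3.35 to 23.0 ± 1.58 RPKM (SD, n = 3; log2 fold change -0.56, SE 0.1, edgeR adjusted p = 0.000441), and -0.28 with the GC and length trends removed. HOXC9 (-0.27, edgeR adjusted p = 0.0386) also fell, with a log2 fold change of -0.04 under total reads and -0.01 with the GC and length trends removed. HOXC6 (0.52, edgeR adjusted p = 0.0224) rose at a low level, of 3.41 ± 0.336 RPKM in sh-luc cells. The calls of HOXC6 and HOXC9 did not survive the loss of some libraries. The adjusted p was 0.0506 to 0.0899 for HOXC6 without sh-luc library 2 or 3 or sh-IUR-5 library 1 or 3 and 0.0564 to 0.178 for HOXC9 without sh-luc library 1 or 3 or sh-IUR-5 library 2 or 3. The most abundant targets, CDKN1C at 56.8 ± 6.7 and 52.3 ± 11.7 RPKM, HOXB9 at 33.3 ± 1.76 and 38.3 ± 1.55 RPKM and HOXB2 at 27.7 ± 1.84 and 29.1 ± 2.62 RPKM, did not pass the threshold (edgeR adjusted p = 0.511, 0.0707 and 0.663). With the GC and length trends removed HOXB9 and HOXB2 did, with log2 fold changes of 0.46 and 0.25.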

How the data were processed

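The authors trimmed the reads, mapped them to hg38 and deposited, for each of 6 K562 libraries, read counts per RefSeq protein accession and RPKM. Per the labels, CASAVA 1.8, Trimmomatic 0.32, Bowtie2 2.1.0 and SAMtools 0.1.19 were used. How reads shared by isoforms were assigned is not given in the sources used here, and 0 of 2254 pairs of same-length rows of a gene held identical reads in every library. In every row the deposited RPKM equalled reads divided by row length and library total (relative tolerance 1e-06). A further deposited table holds the authors' pooled comparison (fold changes, p-values and q-values) and was not used. Accessions were matched to genes for 64.7% of the rows with RefSeq (GRCh38.p14), and unmatched rows held 15.2% to 16.1% of the reads, so sums of a gene may miss rows.

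Reads were summed per gene, with unmatched rows kept single, and features with a mean CPM of at least 1 were tested with edgeR 4.0.16 (R 4.3.3; TMM, quasi-likelihood, two-sided, Benjamini-Hochberg over all 26167 features, threshold 0.05). TMM factors were 0.914 to 0.929 in sh-luc and 1.06 to 1.13 in sh-IUR-5 libraries, and the biological coefficient of variation was 8.35%. The reference genes ACTB and GAPDH had log2 fold changes of -0.02 (edgeR adjusted p = 0.866) and -0.22 (edgeR adjusted p = 0.0232). On simulated counts with 200 of 26167 features changed, edgeR recovered 159 (61 changed by a log2 of 0.5 and 98 by a log2 of 1) with 13 false calls. The simulation had the same dispersion (0.0064) for all features and no GC trend, RNA composition shift or label series. It therefore checks the code and does not measure the rate of false calls in these data. Chi-square per feature between libraries of a group, which is 1 for sampling noise alone, was 2.08 to 9.56. It was lowest between libraries 2 and 3 in both groups (2.83 in sh-luc and 2.08 in sh-IUR-5) and 5.01 to 9.56 in the other pairs. The libraries were counted as separate, so every adjusted p rests on libraries 2 and 3 being independent. The limit of 3 reads for a count of 0 covers counting error only.

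Members and gene lists were chosen with earlier results of these data known. Named were the 10 members, COMMD3, COMMD3-BMI1, paralogs of members and, from each list, up to 6 genes past the threshold with the largest changes and up to 3 others with the highest RPKM; AUTS2 and the markers were named in addition, and the results for 2 genes of the lists are not reported here by name. Alternatives were DESeq2 1.42.0 and its size factors, other filters, scaling to total reads, the replicate number as a block, a label-series term, single libraries left out, the row with the most reads, read-through rows added to BMI1, and a stricter threshold. Taking out the trends of a library with coding GC and length (mgcv 1.9.3, as edgeR offsets, for 10587 genes) was added after the data were examined.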

Additional observations from a re-analysis of the deposited data

How the results depend on the processing

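The log2 fold change of BMI1 ran from 0.70 to 1.14 over 17 alternative fits, given as a description because BMI1 was chosen for its change. Of 161 alternative values for the 10 core genes, 8 changed sign. Those that changed sign were, with total reads, PHC2 (0.13), EZH2 (0.093) and EED (0.077), with the row with the most reads, RNF2 (-0.047) and EZH2 (0.0057), without sh-luc library 1, PHC2 (0.00047, with a lowest value of -0.21 over the libraries left out), and with the GC and length trends removed, SUZ12 (-0.0096), also with the replicate block (-0.0092). The causes were not tested.

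Same-numbered libraries correlated at 0.31, 0.088 and -0.0066 in their deviations from the group means, so the numbers were not taken as pairs. Within a label series the correlations were 0.31 for the libraries numbered 1 and -0.0066 to 0.23 among those numbered 2 and 3. Between the series they were -0.26 to -0.07. Deviations from the mean of 3 libraries sum to 0, so these values are not independent and no series effect is read from them. With the replicate block 12046 features passed in place of 10157, with 6 of the 10 core genes, 5 of the wider list lower and 4 targets higher. With a term for the label series 12777 features passed, with 8 core genes, 5 of the wider list lower and 4 targets higher.

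With total reads 10152 features were higher and 2131 lower, in place of 5088 and 5069, with 1 of the wider list lower, 5 targets higher and 1 lower. At an adjusted p of 0.01, 6429 features passed (3095 higher, 3334 lower), with 14 of the wider list higher, 0 targets higher and 1 lower. Among the 10587 genes with a GC value 4993 passed (2580 higher, 2413 lower), with 1 target lower. With trends removed in these genes 4772 passed (2338 higher, 2434 lower), with 5 targets higher and 1 lower, and with the replicate block as well 5907 passed (2876 higher, 3031 lower), with 8 core genes, 6 of the wider list lower, 5 targets higher and 1 lower. Without a filter 5 of the wider list were lower. DESeq2 called 8155 features, with 0 targets higher and 1 lower, and the row with the most reads gave 1 target higher.

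With single libraries left out, 7981 to 9584 features passed (3912 to 4650 higher, 4069 to 4934 lower), with 3 to 6 core genes (3 without sh-luc library 1), 17 to 20 of the wider list higher and 2 to 4 lower, and 0 to 2 targets higher and 1 to 3 lower. By the mean RPKM over rows, as by the row with the most reads, 3 of 10 core genes kept their rank. By the row with the most reads, sh-luc shares were 73.2% for EZH2, 93.8% for RING1, 23.6% for BMI1 and 59.5% for PHC2. Low counts limit PHC2 and HOXC6 most.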
